A study of Mus musculus with 25 samples.

Results

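The 9 genes described here are the muscle regulatory genes *Pax7*, *Pax3*, *Myf5*, *Myod1*, *Myog*, *Myf6*, *Msc*, *Mymk* and *Megf10*, chosen by name from the 52636 genes of the count table. They were measured by sequencing of total RNA from the *soleus*, a slow hindlimb muscle, of 25 mice aged 12 weeks, with 1 library per mouse. All mice were C57BL/6 and carried *Dnmt3a* alleles with LoxP sites around exon 19. The mD3AKO mice also carried Cre recombinase under the muscle creatine kinase promoter, which is active in differentiated muscle fibers and heart, and the WT mice carried the floxed alleles without Cre. DNMT3A is an enzyme that adds methyl groups to cytosine in DNA. Muscle was taken either from mice kept on a still treadmill (rest: 5 WT and 7 mD3AKO) or 60 minutes after a treadmill run of 30 minutes (exercise: 7 WT and 6 mD3AKO). Males and females were present in every group, with 13 males and 12 females in all.

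Satellite cells are the stem cells of skeletal muscle and lie between the fiber and its basal lamina. PAX7 marks and maintains them, and PAX3 is its paralog, used mainly in the embryo. MYF5 and MYOD1 are basic helix-loop-helix factors that commit cells to the muscle lineage, MYOG drives their differentiation, and MYF6 (MRF4) is the member of this family most abundant in mature fibers. The 4 factors bind E boxes, the DNA motif CANNTG, together with E proteins such as TCF3. MSC (musculin) is a related repressor, MYMK (myomaker) a membrane protein required for fusion of myoblasts, and MEGF10 a surface receptor of satellite cells.

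The mice are called by the numbers the labels give them. The libraries held 22671457 to 37431801 counts. Levels are given as CPM, counts per 1000000 counts of the library, with the size of each library scaled by edgeR's TMM method. *Dnmt3a*, the targeted gene, measured 93.4 to 130.5 CPM in the 12 WT libraries and 34.6 to 53.9 CPM in the 13 mD3AKO libraries, so that the genotypes did not overlap. Ribosomal RNA took 39.5% of the counts of mouse 15 (mD3AKO, rest), which also had the fewest counts, against 7.75% to 13.0% in the other 24 libraries. Mouse 7 (mD3AKO, rest) and mouse 19 (mD3AKO, exercise) stood apart from their groups in several of the genes, as described at the end. Some of the results that rest on them are given with and without them. None of the 67 pairs of libraries within a group held identical counts.

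In *soleus*, *Myf6* was by far the most abundant of the 9 genes. Per kilobase of exon its level was 42.6 CPM per kb on average over the 25 libraries, followed by *Myog* at 7.95, *Myod1* at 3.73, *Myf5* at 0.848, *Pax7* at 0.803, *Megf10* at 0.657, *Msc* at 0.395, *Mymk* at 0.194 and *Pax3* at 0.00154 CPM per kb. *Myf5*, *Pax7* and *Megf10* lay close together in this order, and their ranges over libraries overlapped. Their order changed with the group: *Pax7* was below *Myf5* in WT (0.653 and 0.813 CPM per kb) and above it in mD3AKO (0.942 and 0.88 CPM per kb), and in exercised WT mice *Megf10* (0.665 CPM per kb) was above *Pax7* (0.543 CPM per kb). In the tissue as a whole, fewer cells of a type and less RNA per cell cannot be told apart for any of these genes. *Pax3* was read at 0 to 3 counts per library, with no count in 19 libraries. *Mymk* was read at 1 to 23 counts in the other 24 libraries and at 113 counts in mouse 7. The remaining 7 genes passed the filter on low counts and were tested. *Myf6* (chr10:107492853-107494737, minus strand, mm10) lies next to *Myf5* on the same strand. *Msc* (chr1:14753346-14755992, minus strand) is overlapped by a gene on the other strand, and the strand setting of the counting is not given in the sources used here, so reads of the pair cannot be told apart.

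The promoters of 3 of the 9 genes were taken from the RefSeq table used here (GRCm38.p6, 250 bases before to 50 after each start). *Megf10* was left out by name, so the 3 are those kept and not a count of the members with a RefSeq promoter. They are described because the comparisons turn on these 3 genes, *Pax7*, *Myf5* and *Myog*, and because CpG is the dinucleotide that DNMT3A methylates. The window of *Pax7* held 17 CpG, that of *Myog* 9 and that of *Myf5* 3, against a median of 7 over 32851 windows. The *Pax7* window (chr4:139832919-139833218, minus strand) starts from the RefSeq start and lies wholly inside the gene as the count table's annotation has it, which begins further upstream, so its sequence is not printed and its CpG and E box counts are not those of the bases before that annotated start. An E box (CANNTG, the same on both strands) was present 2 times in the window of *Myog* and not found in those of *Pax7* and *Myf5*, and 72.3% of all windows held at least 1 and 39.6% at least 2. The stretches before the annotated starts of *Myog* (chr1:134289754-134289988, plus strand) and *Myf5* (chr10:107486135-107486384, minus strand) are printed 5′ to 3′, with capitals for CpG and for the 1 E box of the printed *Myog* stretch.
Myog: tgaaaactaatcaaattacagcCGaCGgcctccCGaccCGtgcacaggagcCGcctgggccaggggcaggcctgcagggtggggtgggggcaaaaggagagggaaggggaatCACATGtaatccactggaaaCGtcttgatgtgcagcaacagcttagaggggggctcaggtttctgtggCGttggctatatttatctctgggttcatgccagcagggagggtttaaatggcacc
Myf5: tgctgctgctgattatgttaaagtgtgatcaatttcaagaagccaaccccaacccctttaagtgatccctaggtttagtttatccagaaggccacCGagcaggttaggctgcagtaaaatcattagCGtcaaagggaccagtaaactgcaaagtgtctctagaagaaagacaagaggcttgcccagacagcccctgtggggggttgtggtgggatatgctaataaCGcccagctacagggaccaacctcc

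**Figure D1:**
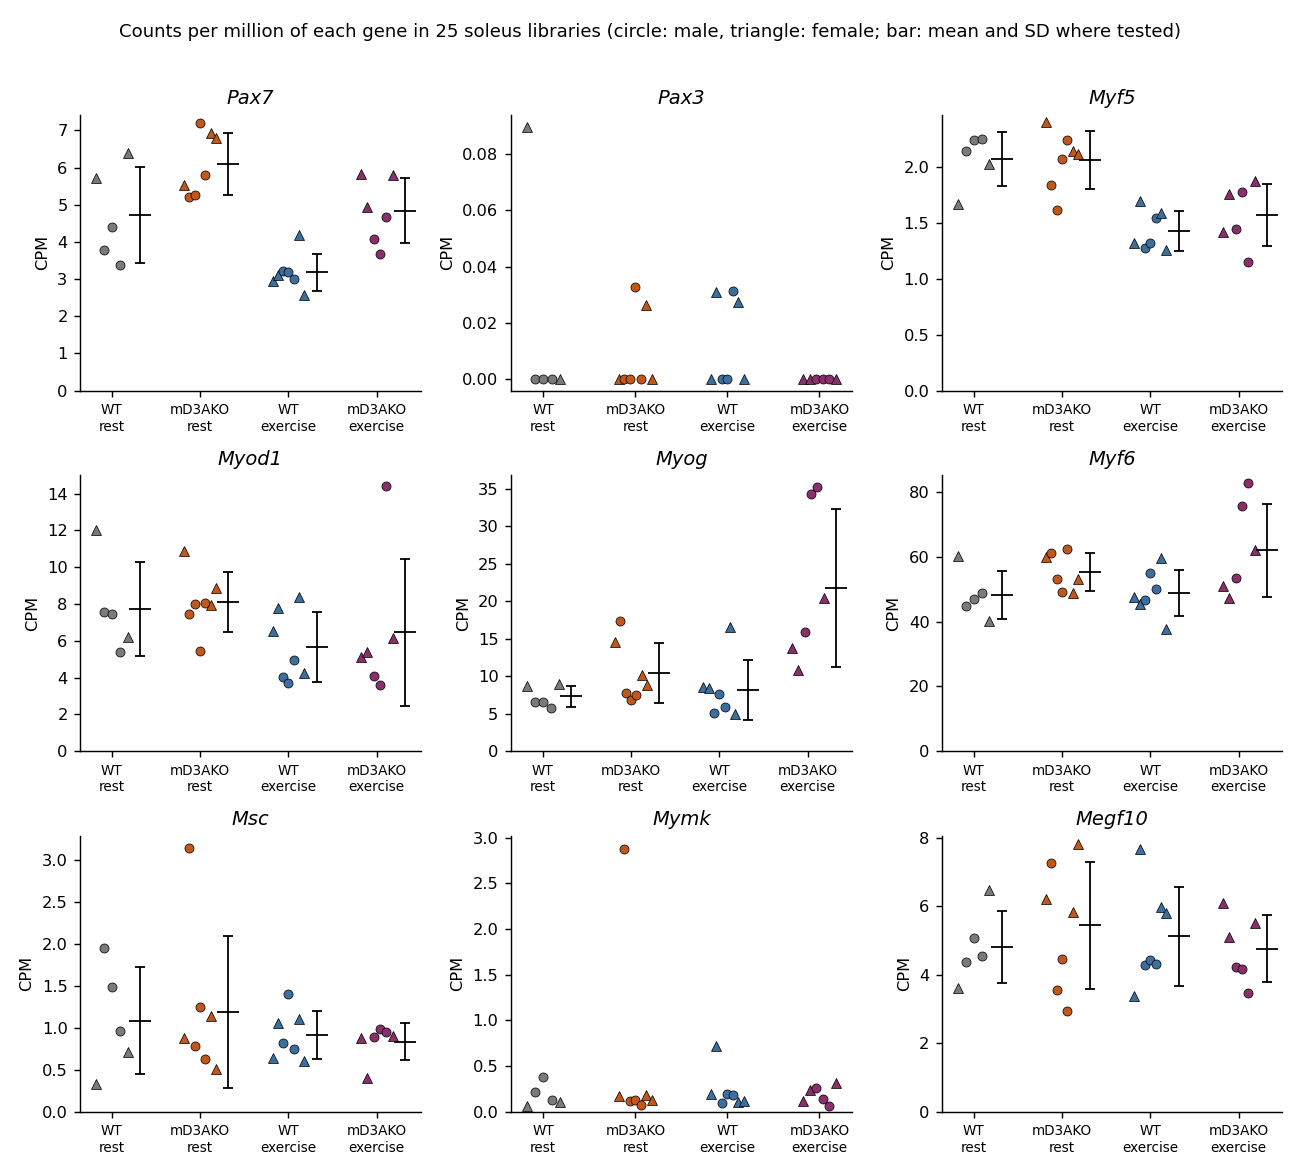
CPM (y axis, linear) of the 9 genes in each of the 25 *soleus* libraries, by genotype and treatment (x axis). Circles are males and triangles females, and the bars give the mean and SD of each group for the 7 tested genes. *Pax7* was higher in mD3AKO than in WT and lower after exercise, *Myf5* was lower after exercise, and *Myog* reached 35.2 CPM in exercised mD3AKO mice.

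The first comparison was between mD3AKO and WT, averaged over rest and exercise. *Pax7* was 1.40-fold higher in mD3AKO, and the other 6 tested genes did not pass the test, among them *Myog*, whose level was 1.95-fold higher with an adjusted p of 0.0543 by edgeR's quasi-likelihood test. Of all 16340 genes tested, 0.226% were called higher in mD3AKO.

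*Pax7* (chr4:139737062-139833528, minus strand, mm10) measured 3.37, 3.78, 4.40, 5.73 and 6.39 CPM in the 5 rested WT mice. In the 7 rested mD3AKO mice its level ran from 5.21 to 7.19 CPM with a median of 5.80. After exercise it ran from 2.58 to 4.20 CPM (median 3.12) in WT and from 3.69 to 5.82 CPM (median 4.82) in mD3AKO. All 7 rested mD3AKO mice lay above the rested WT median and 3 of them above the highest rested WT mouse, and all 6 exercised mD3AKO mice lay above the exercised WT median and 4 of them above the highest exercised WT mouse. The groups overlapped in both states. The log2 fold change was 0.48 (SE 0.105, 95% interval 0.268 to 0.70) with an adjusted p of 0.0384 by the quasi-likelihood test of edgeR, adjusted over all genes tested by the Benjamini-Hochberg method.

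The size of the *Pax7* difference varied little when libraries were left out, while its call was often lost. When libraries were left out in turn, the log2 fold change stayed between 0.43 and 0.55, but the adjusted p was above 0.05 in 17 of the 25 fits. These left out mice 11, 13 or 14 (WT, rest), mice 12, 15, 21 or 24 (mD3AKO, rest), mice 4, 5, 9, 16, 18 or 25 (WT, exercise), or mice 3, 6, 19 or 23 (mD3AKO, exercise), with adjusted p between 0.0505 and 0.106 by edgeR. These fits held no term for sex. The call held in 10 of 14 other settings, with an adjusted p of 0.00634 with sex added to the model, 0.00735 with 8 groups of sex, genotype and treatment, 0.00506 with blocks of mouse numbers and 0.00257 by DESeq2. It was 0.436 with library totals as the scale, 0.0497 without mice 7 and 19 and 0.0607 without mice 7, 15 and 19. Mouse numbers ran with sex (females 1 to 6 and 20 to 25, males 7 to 19), so that blocks of them and sex are not independent. Within males alone the log2 fold change was 0.50 (adjusted p = 0.193 by edgeR) and within females alone 0.43 (adjusted p = 1).

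*Myog* (chr1:134289989-134292548, plus strand) measured 5.77, 6.52, 6.52, 8.68 and 8.98 CPM in rested WT mice. In rested mD3AKO mice it ran from 6.86 to 17.3 CPM with a median of 8.88. In exercised WT mice it ran from 4.98 to 16.6 CPM (median 7.66), and in exercised mD3AKO mice from 10.8 to 35.2 CPM (median 18.1). All 6 exercised mD3AKO mice lay above the exercised WT median, but mouse 22 (WT, exercise) had more *Myog* than 3 of them. The log2 fold change between genotypes was 0.96 (SE 0.216, 95% interval 0.518 to 1.41). Its adjusted p fell below 0.05 when mouse 22 (0.00594), mouse 6 (0.0219), mouse 3 (0.0406) or mouse 12 (0.0456) was left out. In the other 21 fits without a library it did not, with values up to 0.124 by edgeR. The adjusted p was 0.163 without mice 7 and 19, where the log2 fold change was 0.78. Under other models it was 0.0456 with sex added, 0.0394 with blocks of mouse numbers, 0.0235 with 8 groups of sex, genotype and treatment, and 0.00794 by DESeq2, but 0.0921 in a robust fit and 0.128 with library totals as the scale. The log2 fold change was 1.43 in males (adjusted p = 0.0437 by edgeR) and 0.48 in females (adjusted p = 1), and the difference between the sexes was not tested.

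The other genes differed less between the genotypes. *Myf6* averaged 58.5 ± 10.7 CPM (SD, n = 13) over the mD3AKO mice, and 48.7 ± 6.89 CPM (SD, n = 12) over the WT mice, a log2 difference of 0.27 (95% interval 0.088 to 0.452) with an adjusted p of 0.374 by edgeR. Without mouse 19, which had the highest *Myf6*, the log2 difference was 0.218. For *Myf5* the log2 difference was 0.064, with a 95% interval of -0.122 to 0.25. The intervals were wider for *Myod1*, at -0.269 to 0.53, and for *Megf10*, at -0.266 to 0.352. That of *Msc*, at -0.548 to 0.579, was the widest of the 7 and allows a level up to 1.49-fold higher in mD3AKO. All 7 estimates were above 0, with a median of 0.13 against 0.0070 over all genes tested, but those of *Myf5*, *Myod1*, *Msc* and *Megf10* changed sign under at least 1 of the settings tried.

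**Figure D2:**
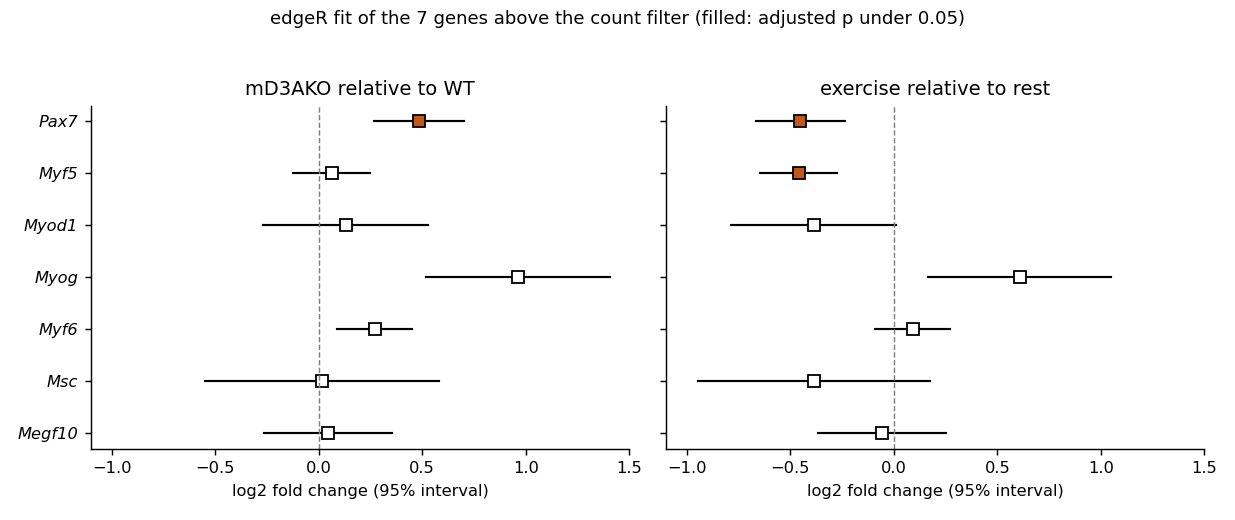
Log2 fold changes (x axis) of the 7 tested genes between genotypes (left) and between exercise and rest (right), with 95% intervals, from the edgeR fit to all 25 libraries. Filled squares had an adjusted p under 0.05, which were *Pax7* in both comparisons and *Myf5* after exercise. Without passing the adjusted threshold, the interval of *Myog* lay above 0 in both comparisons and that of *Myf6* between genotypes.

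The second comparison was between exercised and rested muscle, averaged over genotypes. *Pax7* and *Myf5* fell, both by 0.45 to 0.46 on the log2 scale, 2 of 7 tested genes beside 4.69% of all genes tested that were called lower after exercise. *Pax7* was 1.37-fold lower after exercise (SE of the log2 change 0.105, adjusted p = 0.00411 by edgeR). In WT, all 7 exercised mice lay below the rested median and 6 of them below the lowest rested mouse. In mD3AKO, 5 of 6 exercised mice lay below the rested median.

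*Myf5* (chr10:107482908-107486134, minus strand) measured 1.67, 2.02, 2.14, 2.24 and 2.25 CPM in rested WT mice and 1.26 to 1.69 CPM (median 1.32) in exercised WT mice. In mD3AKO it ran from 1.61 to 2.40 CPM (median 2.11) at rest and from 1.15 to 1.87 CPM (median 1.60) after exercise. All 13 exercised mice lay below the rested median of their genotype, although the ranges overlapped in both. It was 1.38-fold lower after exercise (log2 change -0.46, SE 0.0902, adjusted p = 0.000843 by edgeR), on 32 to 84 counts per library. Both falls passed the test in all 25 fits that left out a library, with adjusted p up to 0.0141 for *Pax7* and up to 0.00251 for *Myf5*. They also passed without mice 7, 15 and 19. In females alone *Myf5* did not pass (log2 change -0.37, adjusted p = 0.27 by edgeR).

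*Myod1* (chr7:46376474-46379099, plus strand) showed the same sign with a wider spread. It measured 5.37, 6.20, 7.44, 7.59 and 12.0 CPM in rested WT mice, and 3.71 to 8.38 CPM (median 4.95) in exercised WT mice. In mD3AKO it ran from 5.45 to 10.9 CPM (median 8.02) at rest and from 3.58 to 14.4 CPM (median 5.24) after exercise, where 5 of 6 mice lay below the rested median and mouse 19 above every other library. The log2 change was -0.39 (SE 0.193, adjusted p = 0.251 by edgeR). Without mouse 19 it was -0.60 with an adjusted p of 0.0109, and without mice 7 and 19 it was -0.60 with an adjusted p of 0.014.

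*Myog* went the other way, with a log2 change of 0.61 (SE 0.215, adjusted p = 0.0726 by edgeR), and its adjusted p was 0.0331 without mouse 7 and 0.0372 without mouse 6. It did not pass in the other 23 fits without a library, with adjusted p up to 0.15 by edgeR. For *Myf6* the log2 change was 0.091 (95% interval -0.0909 to 0.272). The change of *Msc* was -0.15 without mouse 7. With all mice, the changes of *Msc* (-0.39, 95% interval -0.947 to 0.175) and *Megf10* (-0.058, 95% interval -0.367 to 0.252) did not pass the test either. The median change of the 7 genes was -0.39, against -0.00088 over all genes tested, and was -0.166 without mice 7 and 19.

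The third question was whether exercise changed the genes differently in the genotypes. By edgeR no gene was called for the interaction (0% of the genes tested, with 403 genes at an unadjusted p under 0.05, and 0 called by DESeq2). *Myog* was the 1 member with an unadjusted p under 0.05: it was 2.07-fold higher after exercise in mD3AKO (log2 change 1.05, SE 0.29, adjusted p = 0.0275 by edgeR) and 1.12-fold higher in WT (log2 change 0.17, SE 0.314, adjusted p = 0.958), and the difference between these changes was 0.88 (SE 0.425, unadjusted p = 0.048, adjusted p = 1). Within mD3AKO, where 3.7% of genes were called higher after exercise, *Myog* lost its call when mouse 8, 12, 17, 19 or 24 was left out, with adjusted p between 0.0569 and 0.101, and it was not called in females alone (log2 change 0.42, adjusted p = 0.818). Within WT, leaving out mouse 22 turned its log2 change to -0.11.

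*Pax7* was 1.49-fold lower after exercise in WT (adjusted p = 0.0311 by edgeR) and 1.26-fold lower in mD3AKO (adjusted p = 0.204), and *Myf5* was 1.45-fold lower in WT (adjusted p = 0.0161) and 1.31-fold lower in mD3AKO (adjusted p = 0.0681). In WT 1.43% of genes were called lower after exercise. The WT change of *Pax7* on the log2 scale was -0.92 in females alone and -0.30 in males alone, where it was not called (adjusted p = 0.612 by edgeR). That of *Myf5* was -0.34 in females (adjusted p = 0.916) and -0.70 in males (adjusted p = 0.121), and the differences between the sexes were not tested. The interactions were 0.24 (SE 0.209) for *Pax7* and 0.15 (SE 0.18) for *Myf5* on the log2 scale, with 95% intervals of -0.193 to 0.667 and -0.226 to 0.517. The *Pax7* call in WT was lost when mouse 1, 20, 4, 5, 9, 16, 18 or 25 was left out (adjusted p of 0.05 to 0.169), and the *Myf5* call in WT when mouse 13 was left out (adjusted p = 0.0552). In mD3AKO the *Myf5* change passed without mouse 8 (adjusted p = 0.0396) or mouse 23 (adjusted p = 0.0415).

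Within each state, no member was called between the genotypes in the edgeR fit over 4 groups, beside 0.0918% of all genes at rest and 0.11% after exercise. At rest 1 of the 7 genes had an unadjusted p under 0.05, as did 597 of the 16340 genes tested, and none of the 7 was called by DESeq2, which called 23 genes. After exercise 3 of the 7 had an unadjusted p under 0.05, as did 900 of all genes, and 2 were called by DESeq2, which called 28 genes. After exercise *Myog* was 2.65-fold higher in mD3AKO (log2 difference 1.41, SE 0.292, adjusted p = 0.0522 by edgeR) and *Pax7* 1.52-fold higher (log2 difference 0.60, SE 0.146, adjusted p = 0.186). The *Myog* difference after exercise passed when mouse 22 (adjusted p = 0.00341), 6 (0.016), 7 (0.0347) or 3 (0.0368) was left out. It did not pass in the other 21 fits without a library, with adjusted p up to 0.252 by edgeR, and was 1.21 without mouse 19. The *Myog* difference also passed in 5 of 14 other settings, among them edgeR with 8 groups (adjusted p = 0.0187) and DESeq2 (0.00515). The *Pax7* difference after exercise passed in 4 of the 14. By edgeR its adjusted p was 0.0402 with sex added, 0.0315 with blocks of mouse numbers and 0.0299 with 8 groups, and it was 0.0377 by DESeq2. At rest *Myog* was 1.44-fold and *Pax7* 1.29-fold higher, both with an adjusted p of 1 by edgeR.

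**Figure D3:**
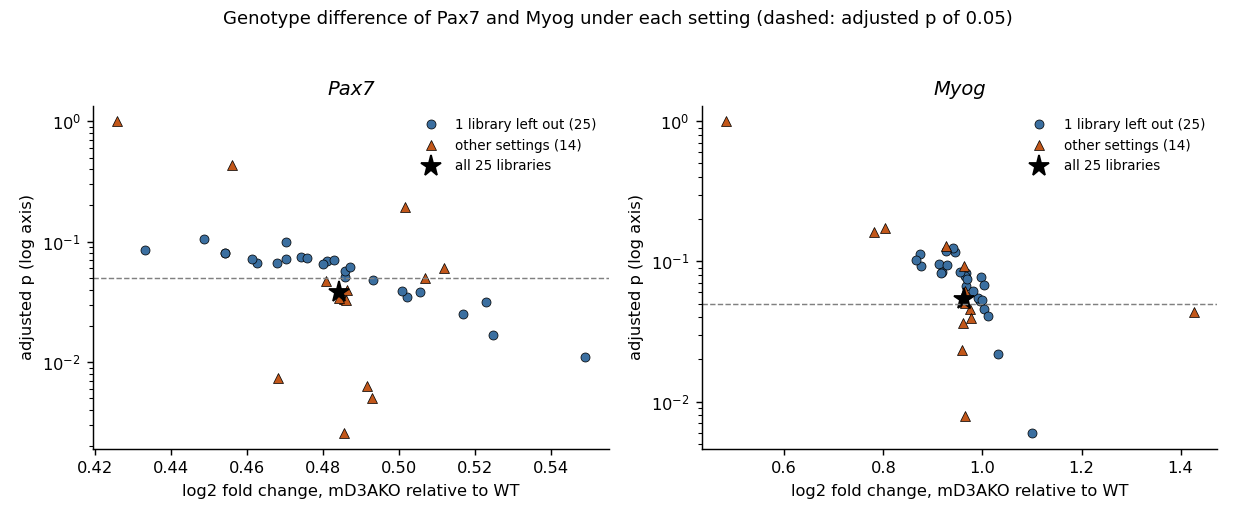
Log2 fold change between genotypes (x axis) and its adjusted p (y axis, log scale) for *Pax7* and *Myog*, with all 25 libraries (star), with 1 library left out (25 circles) and under 14 other settings (triangles). The *Pax7* points lie between 0.43 and 0.55 on the x axis and on both sides of the dashed threshold of 0.05, and those of *Myog* spread from 0.48 in females alone to 1.43 in males alone.

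The sexes were compared within the 4 groups, since WT at rest held 2 females of 5 mice and WT after exercise 4 of 7. *Pax7* was 1.23-fold lower in males (log2 difference -0.30, SE 0.0817, adjusted p = 0.027 by edgeR with 8 groups), beside 2.79% of 17389 genes called lower in males. Among rested WT mice the females had 5.73 and 6.39 CPM and the males 3.37 to 4.40 CPM. Exercised WT females, at 2.58 to 4.20 CPM, spanned the males, at 3.01 to 3.23 CPM. In rested mD3AKO the females ran from 5.54 to 6.92 CPM and the males from 5.21 to 7.19 CPM. In exercised mD3AKO the females ran from 4.95 to 5.82 CPM and the males from 3.69 to 4.68 CPM. The call was lost without mouse 20 (adjusted p = 0.0835) or mouse 17 (adjusted p = 0.0546). *Msc* was 1.67-fold higher in males (adjusted p = 0.0665), which passed without mouse 15 (adjusted p = 0.0476). *Megf10* was 1.29-fold lower in males (adjusted p = 0.0986), which passed without mouse 7 (0.0145), mouse 4 (0.0367) or mouse 1 (0.0478). The remaining tested genes had adjusted p of 0.419 to 0.855 in this comparison.

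*Mymk* and *Pax3* did not pass the filter of the fit with 4 groups, and *Mymk* passed that with 8 groups, as used for the sexes. *Mymk* averaged 0.37 ± 0.759 CPM (SD, n = 13) over the mD3AKO mice, and 0.209 ± 0.181 CPM (SD, n = 12) over the WT mice, a difference with p = 0.82 in a permutation test (two-sided, 100000 resamples), and without mouse 7 the mD3AKO mean was 0.161 CPM, below that of WT (p = 0.48). For exercise the *Mymk* means were 0.211 CPM against 0.382 CPM at rest (permutation p = 0.75), and 0.154 CPM at rest without mouse 7 (p = 0.39). *Pax3* gave p = 0.22 for genotype and p = 0.56 for exercise in the same permutation test, on 8 counts in all.

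Genes that act with or on these factors were counted from lists chosen with earlier results of these data known. The counts at an unadjusted p under 0.05 stand beside 1018 of all 16340 genes tested for genotype and 3488 for exercise. Of 20 other genes of satellite cells, all tested, none was called between genotypes (1 at an unadjusted p under 0.05 by edgeR), with a median log2 difference of 0.0030. After exercise 2 of the 20 rose and 2 fell, beside 5.7% of all genes tested that were called higher and 4.69% that were called lower. *Sdc4*, a heparan sulfate proteoglycan found on satellite and other cells, was 1.91-fold higher (adjusted p = 7.77e-09 by edgeR), and *Met*, the receptor of hepatocyte growth factor, 1.24-fold higher. *Fgfr4*, a growth factor receptor, was 1.41-fold lower (adjusted p = 0.00845). Of the 12 tested of 13 partner genes, which include the E proteins and MEF2 factors, none was called between genotypes (3 unadjusted), and 2 fell after exercise, when 4.69% of all genes tested did, among them *Tcf3*, an E protein that dimerizes with the myogenic factors, which was 1.24-fold lower.

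Of 17 inhibitors of the myogenic factors none was called between genotypes (2 unadjusted). After exercise 1 of the 17 rose and 3 fell, beside 5.7% and 4.69% of all genes tested. *Id1*, which sequesters E proteins, rose 2.04-fold (adjusted p = 0.000346 by edgeR), while *Hes1*, a repressor downstream of Notch, fell 2.11-fold (adjusted p = 6.24e-09). *Bhlhe40*, also a helix-loop-helix repressor, fell 1.32-fold and *Snai2*, a zinc finger repressor, 1.48-fold. The mean level of *Hes1* went from 26.8 to 13.2 CPM in WT and from 31.2 to 14.2 CPM in mD3AKO. The median log2 change of the 17 was -0.167, and it was -0.183 without mice 7 and 19 and -0.0374 without mice 7, 15 and 19.

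Of 14 genes of differentiation and fusion, 13 were tested. *Myh8*, the perinatal myosin heavy chain, was called between genotypes at 10.5-fold higher in mD3AKO (adjusted p = 7.1e-07 by edgeR), with group means of 9.48 and 8.25 CPM in WT and 94.8 and 91.2 CPM in mD3AKO at rest and after exercise. All 13 estimates were above 0, with a median of 0.213, which was 0.112 without mice 7 and 19. In this list and those of denervation and the cell cycle, 1 gene each was called higher after exercise, as were 5.7% of all genes tested. Among the 13 it was the cell cycle inhibitor *Cdkn1a*, 1.64-fold higher. Of 10 genes of denervation and the neuromuscular synapse none was called between genotypes (2 unadjusted), and the ubiquitin ligase *Trim63* was called after exercise, 1.64-fold higher. Of 6 tested cell cycle genes none was called between genotypes (1 unadjusted), and *Pcna* was 1.11-fold higher after exercise, while the estimates of the other 5 were below 0 and did not pass. The median log2 change of the 6 after exercise was -0.276, and 0.0102 without mice 7 and 19.

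Markers of other cells moved with exercise beside *Pax7* and *Myf5*. Of 5 endothelial markers, *Kdr* (1.49-fold), *Tek* (1.28-fold) and *Cdh5* (1.17-fold) were lower after exercise, as were 4.69% of all genes tested, and the summed level of the 5 was 354.3 to 477.1 CPM at rest and 298.8 to 398.9 CPM after exercise. The fibroblast and progenitor marker *Ly6a* was 1.21-fold higher, while the estimates of the other 5 fibroblast markers were below 0 and did not pass, with a median of -0.249 over the 6. Without mice 7 and 19 the median was -0.113 and none of the 6 was called, and with 8 groups of sex, genotype and treatment 0 were called higher and 1 lower. No marker of immune cells (6), adipocytes (4), Schwann cells (5), tendon (4) or blood (3) was called by edgeR for genotype or exercise, nor were the 10 markers of *soleus* fibers, with no marker at an unadjusted p under 0.05 either. Between genotypes no marker of fibroblasts or endothelium was called, with 0 at an unadjusted p under 0.05. Of 5 genes of intrafusal fibers, the small fibers of muscle spindles, *Myh8* was the 1 called between genotypes (2 unadjusted) and none was called after exercise (3 unadjusted, as were 3488 of all 16340 genes). The part of these cells in the fall of *Pax7* and *Myf5* was not tested.

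As a description, the genes whose log2 CPM followed each member most closely over the 25 libraries were found among 12806 genes. For *Myog* these were *Zfp568* (Pearson r = 0.816), *Myf6* (0.79) and *Chst3* (0.762). The r of *Myog* with *Myf6* was 0.719 after the group means were subtracted and 0.704 without mice 7 and 19. For *Pax7* they were *Plppr4* (0.782), *Zfp608* (0.777) and *Rhoh* (0.767), and the last fell to 0.25 within groups. *Myf5* was followed by *Tspan13* (0.859), *Clec14a* (0.798) and *Myct1* (0.792), with within-group r of 0.611, 0.367 and 0.309. *Clec14a* and *Myct1* are genes of endothelial cells. *Myod1* was followed by *Ppan* (0.844), *Rnf122* (0.793) and *Ldlrad3* (0.778). *Myf6* was followed by *Rnf115* (0.85), *Dusp27* (0.843) and *Zdhhc5* (0.816). *Megf10* was followed by *Lama3* (0.802), *Col26a1* (0.779) and *Chodl* (0.771), the last a gene of the satellite cell list, and *Msc* by *Gng11* (0.759), *Col8a1* (0.742) and *Gusb* (0.741). Without mice 7 and 19 the r of *Msc* with these genes was 0.661, 0.672 and 0.586, in the same order. The points share library depth and composition.

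In *Mymk*, *Msc* and *Myod1*, single mice carried much of the spread within a group. Mouse 7, a rested mD3AKO male, had 2.88 CPM of *Mymk* against 0.0699 to 0.185 CPM in the other 6 mice of its group, 3.14 CPM of *Msc* against 0.503 to 1.25 CPM, and 17.3 CPM of *Myog* against 6.86 to 14.6 CPM. Its *Pax7* (5.21 CPM) was the lowest of its group. It had the highest level of all 25 libraries in 7 of 14 genes of differentiation and fusion, in 5 of 7 cell cycle genes, in 4 of 6 fibroblast markers and in 3 of 6 immune markers. The summed level of the genes of differentiation and fusion was 950.1 CPM in mouse 7 and at most 549.3 CPM in the other 24 libraries. *Myh3*, the embryonic myosin heavy chain, was 6.96-fold and *Myl4*, an embryonic light chain, 4.91-fold above the next highest library.

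Mouse 19, an exercised mD3AKO male, had the highest *Myod1* (14.4 CPM), *Myog* (35.2 CPM) and *Myf6* (83.0 CPM) of all 25 libraries, and the lowest *Myf5* (1.15 CPM). The other 5 mice of its group had 3.58 to 6.17 CPM of *Myod1*. Its *Mymk* was at 2 counts. It had the highest level of all 25 libraries in 3 of 10 genes of denervation and the synapse, in 1 of 14 genes of differentiation and fusion, in 2 of 6 immune markers and in none of 7 cell cycle genes. Without mouse 19 the mean of *Myog* in exercised mD3AKO mice was 19.0 ± 9.20 CPM (SD, n = 5), against 21.7 ± 10.5 CPM (SD, n = 6) with it.

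**Figure D4:**
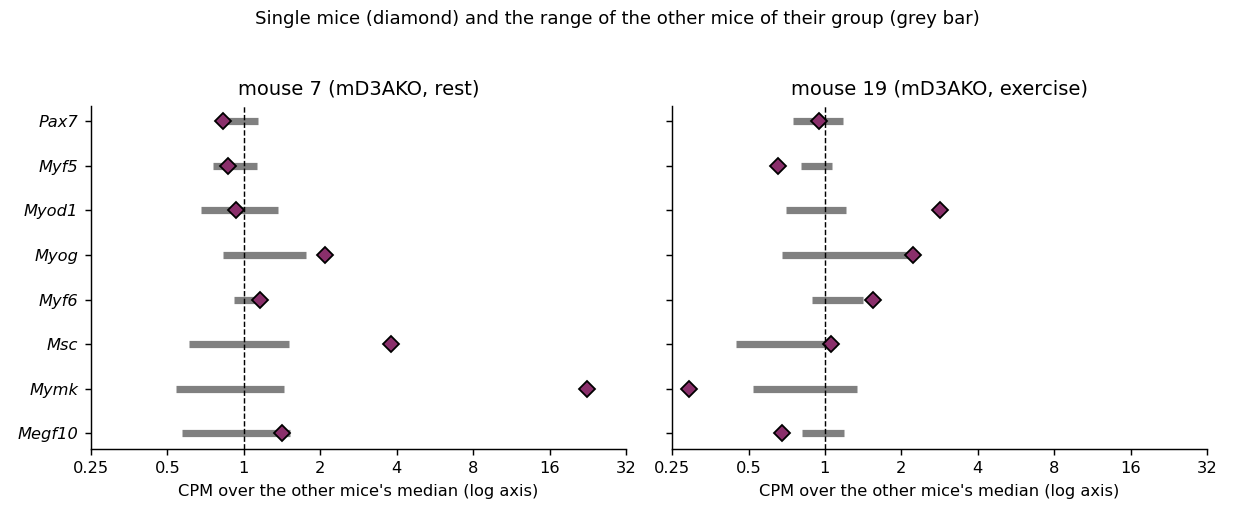
Level of 8 genes in mouse 7 and in mouse 19 (diamonds), as CPM over the median of the other mice of their group (x axis, log scale), with the range of those mice in grey. Mouse 7 lies beyond the other 6 in *Mymk*, *Msc* and *Myog*, and mouse 19 above the other 5 in *Myod1*, *Myog* and *Myf6*.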

How the data were processed

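Total RNA of *soleus* from 25 mice was depleted of ribosomal RNA and sequenced in paired reads of 75 bases. The authors aligned reads to mm10 and counted them per gene of GENCODE release 15 for the mouse, and the deposited table holds raw counts. The submitters' processing notes name FastQC 0.11.5, STAR 2.5.3a and featureCounts 1.5.3. Symbols were taken from GENCODE release 21 for 52403 of 52636 genes. All 9 members matched.

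Genes were kept by edgeR's filterByExpr (minimum count 10, minimum total 15, 4 groups), which left 16340. Counts were scaled by TMM and fitted over 4 groups with edgeR 4.0.16 (R 4.3.3; glmQLFit and glmQLFTest), p-values being adjusted by the Benjamini-Hochberg method over all genes tested, with calls at 0.05. CPM used TMM library sizes. The sexes were compared in a fit with 8 groups (17389 genes). *Mymk* and *Pax3* were compared by permutation of CPM. Likeness used log2 CPM with a prior count of 2 over genes whose mean log2 CPM was 0 or more, and the 3 closest are named. In the other lists, called genes are named, up to 4 per list and comparison, and 2 genes of the lists are not reported here by name. The 9 members and all lists were chosen with earlier results of these data known. Alternatives were DESeq2 1.42.0, other scalings, filters and models, each sex alone, and each library left out. Leaving out mice 7 and 19, alone or with mouse 15, was chosen after seeing the data. The edgeR step was tested on simulated counts. The number of mice per group limits precision, and each library is 1 mouse.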

Additional observations from a re-analysis of the deposited data

Results flagged for a closer look

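In 8 of 35 sets of a gene and a group, the highest or lowest mouse lay farther from the rest than Dixon's 95% limit. Chance passes that limit in about 1 of 20 independent sets of values with a normal spread. Whether CPM are spread in this way was not tested, and the sets share mice, so the 8 of 35 cannot be set against that rate. Nor does it hold for *Pax3* and *Mymk*, whose counts are near 0. In mouse 22 (WT, exercise) both *Pax7* (4.20 CPM, next 3.23) and *Myog* (16.6 CPM, next 8.59) lay above the other 6 mice. In mouse 19 (mD3AKO, exercise) *Myod1* lay at 14.4 CPM, with 6.17 CPM next. In mouse 7 (mD3AKO, rest) *Msc* lay at 3.14 CPM, with 1.25 CPM next, and *Mymk* at 2.88 CPM, with 0.185 CPM next. In mouse 5 (WT, exercise) *Mymk* lay at 0.719 CPM on 23 counts, with 0.192 CPM next. In mouse 6 (mD3AKO, exercise) *Msc* was the lowest, at 0.399 CPM on 12 counts, with 0.875 CPM next. In mouse 1 (WT, rest) *Pax3* lay at 0.0895 CPM, which was 3 counts, with 0 in the other 4 mice.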

How the results depend on the processing

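No paired analysis was possible because each mouse number occurs in 1 group only. The fall of *Pax7* after exercise kept its direction and its call under all 14 settings and all 25 fits without a library, and that of *Myf5* under all but females alone. No member was called for the interaction or between genotypes at rest under any setting. The cause of the differences that follow was not tested.

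The number of members called between genotypes (1) was 2 with sex added, with 8 groups, with blocks of mouse numbers, without the low count filter and by DESeq2, was 0 in females alone, with library totals as the scale and without mice 7, 15 and 19, and was 0 to 2 without single libraries. All genes called between genotypes (44) numbered 72 with sex added, 97 with blocks, 81 by DESeq2, 29 with library totals, 23 in males and 6 in females. After exercise 1 member was called in females alone (2 in all mice), and 1699 genes became 927 with library totals, 966 in males and 512 in females. Between genotypes after exercise (0) the count was 1 with sex added, blocks, RLE scaling, ribosomal and mitochondrial genes removed or no filter, 2 with 8 groups and by DESeq2, and 0 to 1 without single libraries. After exercise in WT (2) it was 1 in females and without the filter, 0 in males and with library totals, and 1 to 2 without single libraries. After exercise in mD3AKO (1) it was 0 in females, with library totals and without mice 7, 15 and 19, and 0 to 2 without single libraries. For sex (1) it was 2 by DESeq2 and 0 to 2 without single libraries.

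The values that changed sign were of members not called in that comparison. Between genotypes, males alone gave log2 differences of -0.064 for *Myf5*, -0.015 for *Msc* and -0.075 for *Megf10*, females alone -0.13 for *Myod1*, and the fit without mice 7 and 19 gave -0.062 for *Myod1* and -0.24 for *Msc* (-0.063 and -0.22 without mice 7, 15 and 19). Without single libraries these ran from -0.074 to 0.24 for *Myod1*, -0.22 to 0.17 for *Msc* and -0.011 to 0.11 for *Megf10*. For exercise, females alone gave -0.051 for *Myf6* and 0.25 for *Msc*, and *Megf10* was 0.023 without mice 7 and 19 and -0.12 to 0.010 without single libraries. Interactions turned for *Pax7* in males (-0.20), for *Myf5* (-0.065) and *Myod1* (-0.30) in females, and, without mice 7 and 19, for *Myod1* (-0.31) and *Msc* (0.13), with -0.30 and 0.096 when mouse 15 was also left out. Without single libraries they ran from -0.29 to 0.24 for *Myod1* and -0.61 to 0.17 for *Msc*. At rest *Myf5* between genotypes was 0.028 with 8 groups, 0.26 in females, 0.019 without mice 7 and 19, and -0.076 to 0.044 without single libraries. *Myog* after exercise in WT was -0.019 in males and -0.11 to 0.26 without single libraries. *Mymk* turned without mouse 7, to -0.0485 CPM for genotype and 0.0561 CPM for exercise. Counts were at most 123 per library for *Myf5*, *Msc* and *Mymk*, and the part of low counts in what was detected was not tested. Between genotypes the SE of *Myf5* (0.0903) was below those of *Myod1* (0.194) and *Myog* (0.216), while that of *Msc* was 0.274.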
